A study of Mus musculus with 4 samples.

Results

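Chromatin accessibility at 36 genes of the B cell, myeloid and erythroid lineages was described in immature γδ T cells of the fetal mouse thymus, cells that belong to none of these lineages. The genes were chosen by function, and comprised 11 B cell genes, 14 myeloid genes and 11 erythroid genes out of 21631 protein-coding genes on the autosomes and X. Open DNA was measured by Omni-ATAC-seq, in which the transposase Tn5 cuts and tags accessible chromatin, and peaks mark stretches with more cuts than their surroundings. The sorted thymocytes carried CD3e and the γδ T cell receptor, lacked CD4 and CD8, and were CD24+ CD45RBlo, an immature stage of the IL-17-producing γδ lineage. Each library came from pooled fetuses of embryonic day 17 to 18 on a C57Bl/6 background (backcross N5). The design held 2 libraries of Maf+/+ Il7rCre fetuses (WT) and 2 of Maf fl/fl Il7rCre fetuses (KO), numbered 1 and 2 in each genotype. Both genotypes carried Il7rCre, in which Cre is driven by Il7r in lymphoid precursors, and the floxed allele of Maf, which encodes the transcription factor c-Maf, was present in KO alone. Whether libraries of the same genotype came from separate pools of fetuses is not stated, so their spread may be technical. With 2 libraries against 2, an exact 2-sided permutation test cannot give a p below 0.333, so genotypes are compared below by their values and by whether their libraries overlap.

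Blood cells of different lineages share progenitors, and commitment to one lineage is accompanied by closing of regulatory DNA of the others. EBF1 and PAX5 establish the B cell program, PU.1 (encoded by Spi1) and the C/EBP factors the myeloid program, and GATA1, TAL1 and KLF1 the erythroid program. PU.1 and TAL1 also act in early thymic progenitors, before the T cell program is fixed. CpG-rich promoters are commonly accessible in most cell types, whereas CpG-poor promoters tend to open only where the gene is used.

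The lists held 102718 and 132179 peaks in WT 1 and WT 2 and 130935 and 120141 in KO 1 and KO 2, covering 20.6 to 29.5 Mb. Merging overlapping peaks (1 bp or more) gave 171490 regions, and 225 of them had one of the 36 genes as the nearest gene body within 100 kb. Of these, 150 were called in at least 2 libraries (consensus regions), 105 of them in all 4, and the other 75 were called in 1 library. WT 1, the shortest list, was the single missing library at 14 of the 150 consensus regions (9.33%), against 10.6% of all 122507 consensus regions. The identity of the sorted cells was checked on 18 T cell genes, among them Cd3e, Lck, Zap70 and Bcl11b: 16 of 18 had a gene-end peak (at most 1 kb from either end of the gene body) in all 4 libraries, and 0 of 18 had none. Of the 36 B cell, myeloid and erythroid genes 13 had one in all 4 libraries, against 59.9% of all protein-coding genes, and 15 had none in any library, against 31.5%. In bulk libraries a peak in a few cells of another type cannot be told apart from a weak opening in many cells.

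Promoter sequences were read from RefSeq (GRCm38.p6), as 250 bases before to 50 bases after the gene start, for 29 of the 36 genes. This gave 32 promoters. The 7 genes without a listed promoter, Cd79b, Ms4a1, Csf1r, Cd14, Spi1, Cebpe and Slc4a1, were not judged here. Of these, Cd79b had a region across its gene end in all 4 libraries. Some listed starts, such as those of Fcgr3, Cd22, Fcrla and Gata1, lie inside the gene body, away from its upstream end. A peak overlapped the promoter in all 4 libraries at 5 of the 32, against 50.8% of 21045 promoters of protein-coding genes. No library had one at 24 of the 32, against 41.8%. The 5 open promoters belonged to Hemgn, which encodes the erythroid nuclear protein hemogen, Cebpa, which encodes the myeloid factor C/EBPα, Itgam, which encodes CD11b, Cd68, which encodes a lysosomal glycoprotein of macrophages, and Bank1, which encodes a scaffold protein of B cell receptor signalling. Their 250 upstream bases are shown 5′ to 3′ on the strand of the gene, since they are the listed promoters with a peak in all 4 libraries. Bases that lay under peaks of all 4 libraries are in capitals. Hemgn is at chr4:46404184-46404433 (minus strand), Cebpa at chr7:35119043-35119292 (plus), Itgam at chr7:128062390-128062639 (plus), Cd68 at chr11:69666171-69666420 (minus) and Bank1 at chr3:136326067-136326316 (minus).
Hemgn: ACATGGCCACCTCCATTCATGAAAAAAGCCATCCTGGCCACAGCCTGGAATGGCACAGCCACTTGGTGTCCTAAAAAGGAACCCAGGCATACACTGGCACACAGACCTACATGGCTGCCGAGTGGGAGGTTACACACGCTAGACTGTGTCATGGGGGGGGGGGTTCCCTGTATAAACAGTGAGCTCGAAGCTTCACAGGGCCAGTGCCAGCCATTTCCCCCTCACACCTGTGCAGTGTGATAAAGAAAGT
Cebpa: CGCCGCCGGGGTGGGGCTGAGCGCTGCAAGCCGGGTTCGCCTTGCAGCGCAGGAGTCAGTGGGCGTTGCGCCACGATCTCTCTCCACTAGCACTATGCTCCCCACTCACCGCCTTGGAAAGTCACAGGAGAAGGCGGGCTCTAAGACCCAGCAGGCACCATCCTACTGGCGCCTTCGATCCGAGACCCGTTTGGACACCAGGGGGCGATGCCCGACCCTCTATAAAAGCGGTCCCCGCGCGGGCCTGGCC
Itgam: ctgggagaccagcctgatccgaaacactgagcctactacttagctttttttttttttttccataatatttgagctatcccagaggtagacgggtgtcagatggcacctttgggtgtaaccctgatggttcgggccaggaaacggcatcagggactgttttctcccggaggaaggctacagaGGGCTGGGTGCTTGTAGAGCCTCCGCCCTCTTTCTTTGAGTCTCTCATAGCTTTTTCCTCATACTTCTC
Cd68: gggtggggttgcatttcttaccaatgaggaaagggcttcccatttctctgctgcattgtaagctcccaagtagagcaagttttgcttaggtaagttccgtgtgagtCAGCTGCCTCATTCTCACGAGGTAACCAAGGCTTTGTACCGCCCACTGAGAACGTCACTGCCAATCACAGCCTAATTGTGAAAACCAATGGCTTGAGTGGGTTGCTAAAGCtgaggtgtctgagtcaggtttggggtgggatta
Bank1: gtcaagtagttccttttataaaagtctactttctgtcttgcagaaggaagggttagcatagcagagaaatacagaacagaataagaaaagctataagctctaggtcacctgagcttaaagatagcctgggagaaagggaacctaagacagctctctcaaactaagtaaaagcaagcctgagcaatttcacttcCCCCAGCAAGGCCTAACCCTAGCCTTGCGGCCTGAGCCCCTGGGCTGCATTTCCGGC
All 250 bases were under the peaks at Hemgn and Cebpa, against 111 at Cd68, 69 at Itgam and 57 at Bank1. The merged region at Cd68 stopped 19 bp before the gene, while those at the other promoters reached into the gene.

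Peak heights are given here and below as −log10 q, the authors' measure of a summit against the background of its own library, which grows with depth. The Hemgn promoter reached 58.8 and 112.1 in WT 1 and WT 2 and 73.4 and 67.0 in KO 1 and KO 2. The Cebpa promoter reached 19.999 and 60.8 in WT and 40.4 and 53.3 in KO. The Itgam promoter reached 18.5 and 36.3 in WT and 39.6 and 49.8 in KO. Within each library's own list, where a percentile of 100 is the tallest peak, the Hemgn promoter stood at the 87.8 to 92.6 percentile, Cebpa at 70.9 to 84.6 and Itgam at 69.2 to 83.8. The Bank1 promoter was lower, at 14.7 and 14.9 in WT and 24.2 and 8.05 in KO. The Cd68 promoter was among the lowest, at 7.62 and 11.1 in WT and 5.14 and 9.71 in KO (31.7 to 47.9 percentile). For Itgam both KO heights were above both WT heights. For Hemgn and Cebpa both KO heights lay between the WT heights, and for Bank1 they lay on either side of them. For Cd68 the heights overlapped, while both WT percentiles (44.8 and 47.9) were above both KO percentiles (31.7 and 42.6).

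Most of these promoters were CpG-poor: the median ratio of observed to expected CpG was 0.2002, against 0.574 over all promoters. Among the 16 member promoters with a ratio under 0.2, 2 were open in all 4 libraries (6.43% of all such promoters), and among the 10 from 0.2 to 0.4, 2 were open (19.8%). None of the genes had a promoter from 0.4 to 0.6, a class of which 49.5% was open. The 6 member promoters with a ratio of at least 0.6 were those of Cebpa, Pax5, both starts of Ebf1 and both starts of Tal1. The class rests on the ratio alone: the first start of Ebf1 had 36.7% G and C, the lowest of the 32. Of these 6, 1 was open in all 4 libraries, that of Cebpa, whereas 82.1% of all 10131 promoters of this class were. No peak of any library overlapped the listed promoters of Pax5, Ebf1 or Tal1, the lineage factors of B and erythroid cells. Peaks did lie close to the promoters of Ebf1, 769 bp outside and 210 bp inside the gene end in all 4 libraries, and of Tal1, 247 and 833 bp inside the gene end in 2 libraries each. The 2 starts of a gene lie close together, so these 6 promoters stand for 4 genes.

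**Figure D1:**
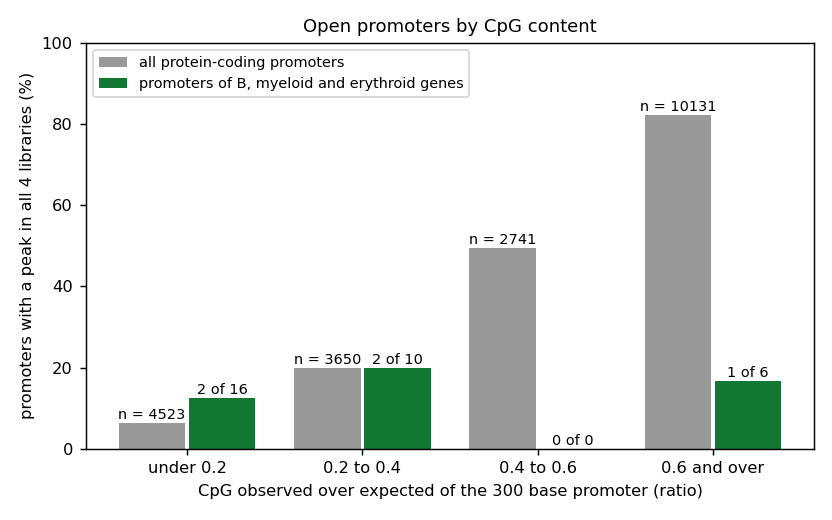
Share of promoters with a peak in all 4 libraries (vertical axis, %) by ratio of observed to expected CpG (horizontal axis, 4 classes), for all protein-coding promoters (grey, n above the bar) and for promoters of the B cell, myeloid and erythroid genes (green, open of total above the bar). In the class of at least 0.6 the grey bar stands at 82.1% and 1 of 6 member promoters is open.

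Closed promoters included those of the globin and haem genes, which are read at very high levels in red cell precursors. No peak overlapped the promoters of Hbb-bs and Hbb-bt, the adult β-globin genes, or Alas2, the erythroid enzyme that starts haem synthesis. Hbb-bs and Alas2 are shown as examples of closed erythroid promoters, with letters that match the GATA motif (AGATAA) or the KLF motif (CCACCC), on either strand, in capitals. Hbb-bs is at chr7:103827929-103828178 (minus) and Alas2 at chrX:150547167-150547416 (plus).
Hbb-bs: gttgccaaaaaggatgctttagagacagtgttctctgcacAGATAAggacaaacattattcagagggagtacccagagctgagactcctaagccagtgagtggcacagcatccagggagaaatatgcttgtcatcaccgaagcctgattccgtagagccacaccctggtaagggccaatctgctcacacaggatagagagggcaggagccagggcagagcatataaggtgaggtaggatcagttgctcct
Alas2: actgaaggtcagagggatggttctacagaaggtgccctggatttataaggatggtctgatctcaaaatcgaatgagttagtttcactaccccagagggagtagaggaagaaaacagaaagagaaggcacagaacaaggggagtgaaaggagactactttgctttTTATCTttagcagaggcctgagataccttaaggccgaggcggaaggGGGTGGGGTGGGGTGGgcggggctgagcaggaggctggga
The Hbb-bs sequence holds 1 GATA motif, and the Alas2 sequence 1 GATA motif and 3 overlapping KLF motifs.

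The 2 adult α-globin genes, Hba-a1 and Hba-a2, had a promoter peak in KO 2 alone, at heights of 3.82 and 4.65 (13.3 and 16.4 percentile). Their promoters are shown because they are near-identical: a run of 247 of the 250 bases is shared, offset by 3. Capitals mark the bases under the KO 2 peak of each gene, at chr11:32283422-32283671 and chr11:32296242-32296491 (both plus).
Hba-a1: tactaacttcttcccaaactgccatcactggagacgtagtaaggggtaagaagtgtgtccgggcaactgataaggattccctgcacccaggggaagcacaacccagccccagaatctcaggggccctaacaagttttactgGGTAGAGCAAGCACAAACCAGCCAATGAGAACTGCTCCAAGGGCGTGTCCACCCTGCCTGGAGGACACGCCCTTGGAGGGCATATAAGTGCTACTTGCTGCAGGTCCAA
Hba-a2: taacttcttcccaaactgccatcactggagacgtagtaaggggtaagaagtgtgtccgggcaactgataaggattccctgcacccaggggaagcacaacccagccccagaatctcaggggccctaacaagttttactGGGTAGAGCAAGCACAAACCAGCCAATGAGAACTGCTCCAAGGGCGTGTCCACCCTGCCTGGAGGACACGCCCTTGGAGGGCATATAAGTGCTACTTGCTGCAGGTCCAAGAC
Reads from copies this alike cannot be placed with certainty, and how the authors treated reads with several matches is not given in the sources used here. Another KO 2 peak lay 2664 bp from Hba-a1 (height 5.77). At the β-globin genes the nearest KO 2 peak was 3272 bp from Hbb-bt and 17271 bp from Hbb-bs, and Alas2 had none in that library nearer than 17421 bp.

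Motifs were counted on both strands of the promoter windows, as a description of the letters and not of binding. The motif AGATAA, read by GATA-family proteins, was in 5 of 11 erythroid, 1 of 11 myeloid and 0 of 10 B cell promoters, against 9.68% of all promoters. CCACCC (KLF factors) was in 7 of 11 erythroid, 3 of 11 myeloid and 3 of 10 B cell promoters, against 33.8% of all. GAGGAA (PU.1) was in 7 of 11 myeloid, 5 of 10 B cell and 3 of 11 erythroid promoters, against 27.2% of all. CCCNNGGG (EBF1) was in 3 of 10 B cell, 3 of 11 myeloid and 4 of 11 erythroid promoters, against 15.8% of all. TGCTGA, the core of the element bound by MAF proteins, was in 6 of 11 myeloid, 3 of 11 erythroid and 0 of 10 B cell promoters, against 18.1% of all, and in 0 of the 5 open promoters. The 2 listed Fcgr3 promoters overlap almost fully and are both among the 6 myeloid ones. TGANTCA (AP-1), which can overlap TGCTGA, was in 3 of the 32 promoters (7.04% of all), TGTGGT (RUNX) in 6 (14.7%) and CAGCTG (E-box) in 5 (15.7%).

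Over whole loci, the genes fell into 3 states. No region was assigned to 6 of the 36 genes (14.4% of all protein-coding genes), 6 more had regions but none called in all 4 libraries, and 24 had at least 1 region called in all 4. The 12 genes with no region of all 4 libraries compare with 23.2% of all protein-coding genes. The 6 genes without a region were Vpreb1, a surrogate light chain gene of pre-B cells, the myeloid genes Mpeg1, Elane and Clec4a2, and the erythroid genes Hbb-bs and Alas2. Clec4a2, which encodes a lectin receptor, was the most isolated, as its nearest peak lay 83677 to 93689 bp away. Around Alas2 the nearest peak was 17404 to 17499 bp away. Elane, which encodes neutrophil elastase, had a peak of a neighbour 2354 to 2373 bp away, and Vpreb1 one 1368 to 1373 bp away, so a missing assignment there does not mean a wide closed stretch. Mpeg1 had a peak at 946 to 1019 bp, nearer to another gene. The 6 genes with regions but none in all 4 libraries were Ms4a1 (which encodes CD20), Csf1r, Cd14, Mpo, Hba-a1 and Hba-a2.

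**Figure D2:**
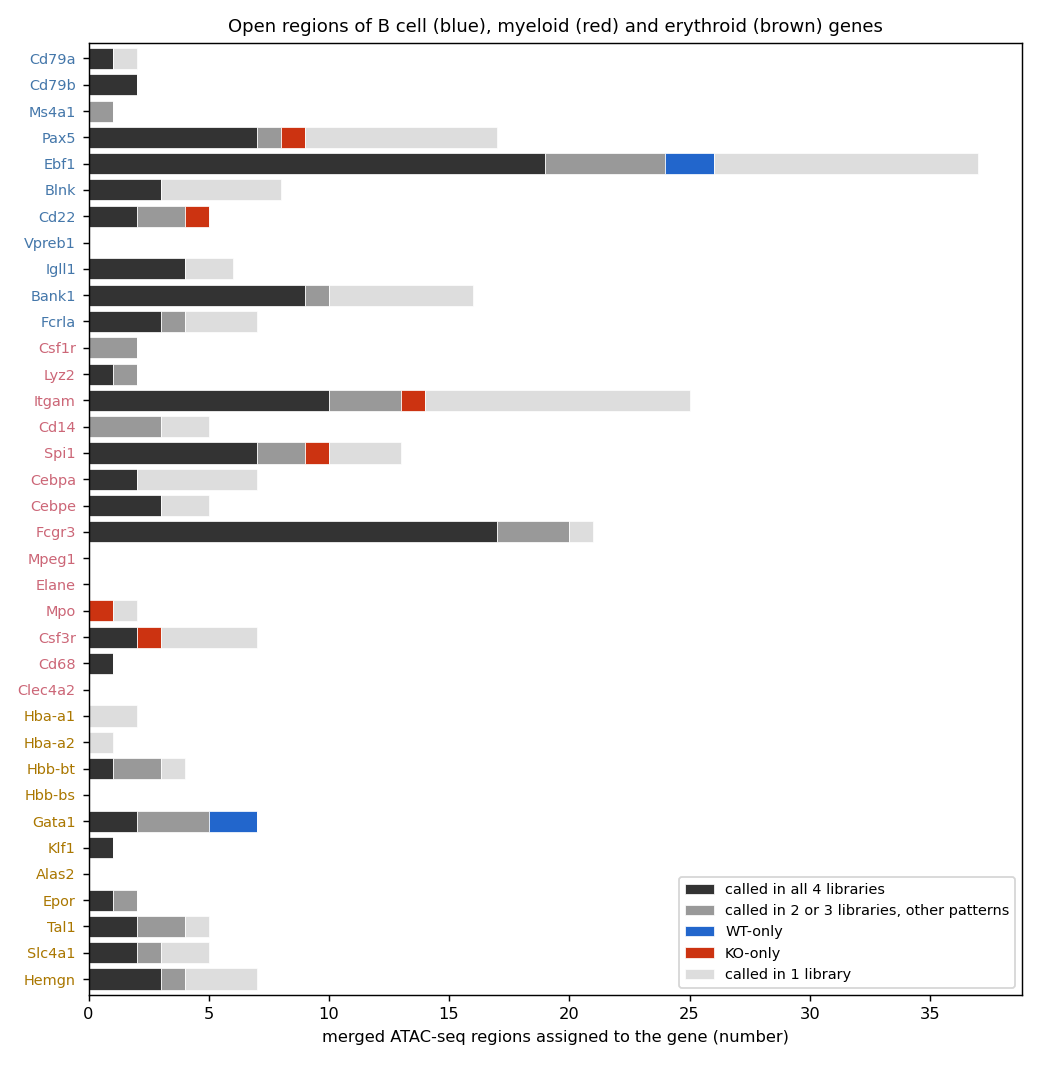
Number of merged regions (horizontal axis) assigned to each of the 36 genes (vertical axis, names in blue for B cell, red for myeloid and brown for erythroid genes), split by the libraries that called them. Ebf1, Itgam, Fcgr3 and Pax5 have the longest bars, and 6 genes have none.

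B cell genes held the most consensus regions, 65 for 11 genes, against 61 for 14 myeloid and 24 for 11 erythroid genes. Many of them lay at the long genes Ebf1, Bank1 (272779 bp) and Pax5 (185947 bp). Counts here and below were not set against gene length. Ebf1, which spans 389997 bp on chromosome 11, had 26 consensus regions, 19 of them in all 4 libraries. Bank1 had 10 and 9, Pax5 9 and 7, Igll1 4 and 4, Fcrla 4 and 3, Blnk 3 and 3, Cd22 5 and 2, and Cd79b 2 and 2. Cd79a had 1 and 1. Within a gene the sites were unequal in height. The tallest site of Pax5, inside the gene at chr4:44704320-44704762, had heights of 59.2 and 123.1 in WT and 76.0 and 99.6 in KO (at least the 90.1 percentile in every library). The next site of Pax5 in height was at chr4:44564663-44564952, with 28.2 and 31.6 in WT and 39.6 and 34.9 in KO. At Ebf1 tall sites included chr11:44925007-44925319, with 50.1 and 104.4 in WT and 72.0 and 86.9 in KO, and chr11:44644789-44645432, with 44.9 and 94.4 in WT and 88.7 and 76.4 in KO. A site 769 bp outside the upstream end of Ebf1, at chr11:44616935-44617331, reached 30.1 and 80.0 in WT and 25.6 and 54.5 in KO. Both factor genes thus held tall sites inside the gene in T cells, while their listed promoters had no peak.

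Receptor and signalling genes of B cells differed in the height of their end peaks. Cd79b, a signalling chain of the B cell receptor, had a region across its end at chr11:106314515-106314710 with 20.4 and 24.4 in WT and 27.1 and 32.5 in KO. Cd79a, the partner chain, had one 939 bp outside the gene with 4.08 and 17.7 in WT and 11.2 and 20.3 in KO. Cd22, an inhibitory receptor, had gene-end peaks at the 14.4 to 33.6 percentile, on the downstream side alone in KO 1. Ms4a1 had 1 weak region 6 bp from the gene, called in WT 2 (2.72) and KO 2 (3.66) alone. Blnk, an adaptor of the same receptor, had an end peak in KO 1 alone (1.43), but a tall site inside the gene at chr19:40963012-40963308, with 30.8 and 58.3 in WT and 42.7 and 58.2 in KO. Gene-end peaks were found in all 4 libraries for 5 of 11 B cell genes, in 1 to 3 libraries for 2 and in none for 4.

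Myeloid genes were uneven. Fcgr3, which encodes a low-affinity receptor for IgG that natural killer cells also carry, had 20 consensus regions, 17 in all 4 libraries, on both sides of the gene and within it. These were 17 of the 43 myeloid regions called in all 4 libraries. No peak of any library overlapped the listed promoters of Fcgr3, which lie inside the gene body, away from its upstream end. At that end, regions called in all 4 libraries lay 390 and 773 bp inside the gene and 622 bp outside it. A tall region, 6114 bp from the gene at chr1:171044347-171045055, had 56.5 and 91.7 in WT and 75.5 and 72.0 in KO. Itgam had 14 and 10, and Spi1 10 and 7. The tallest region of all 36 genes was inside Spi1, at chr2:91101435-91101684, with 81.2 and 148.9 in WT and 102.3 and 113.9 in KO (at least the 93.7 percentile in every library). Cebpa had 2 consensus regions, both in all 4 libraries, and Cebpe, a factor of granulocyte maturation, had 3 and 3. One region of Cebpe, 2584 bp from the gene, had 49.4 and 106.7 in WT and 28.5 and 52.4 in KO. These heights overlapped, while both WT percentiles (87.7 and 92.1) were above both KO percentiles (78.0 and 83.9).

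Other myeloid genes had 3 consensus regions or fewer. Mpo, which encodes myeloperoxidase, had no region in WT and Elane none at all. Csf1r, the receptor for macrophage colony-stimulating factor, had 2 regions, with 4.41 and 6.26 in WT 2, 5.14 and 5.14 in KO 1 and 8.05 and 5.77 in KO 2, and none in WT 1. Cd14, a co-receptor for bacterial lipopolysaccharide, had 3 consensus regions inside the gene, none of them in WT 1, with a highest value of 5.92 in WT 2, 4.13 in KO 1 and 14.4 in KO 2. Csf3r, the receptor for granulocyte colony-stimulating factor, had its 2 regions of all 4 libraries 33030 and 60440 bp upstream. Lyz2, which encodes lysozyme, had 2 consensus regions, a low one in WT 2 and KO 2 (1.95 and 8.29) and one of all 4 libraries 2602 bp downstream with 17.0 and 50.4 in WT and 52.3 and 67.5 in KO, where both KO values were above both WT values. Cd68 had its promoter region alone. Gene-end peaks were found in all 4 libraries for 5 of 14 myeloid genes, in WT 2, KO 1 and KO 2 for 2 (Cd14 and Mpeg1), and in none for 7.

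Erythroid genes had the fewest regions, with 12 of 24 consensus regions found in all 4 libraries, against 50 of 65 for B cell genes, 43 of 61 for myeloid genes and 64.2% of all consensus regions. The heights of these 12 ranged widely. Klf1, which encodes a globin gene activator, had a single region, inside the gene and 972 bp from its end, at chr8:84902954-84903610, with 63.1 and 119.3 in WT and 94.5 and 98.7 in KO. Epor, the erythropoietin receptor, had one inside the gene, 782 bp from its end, at chr9:21962475-21962794, with 51.1 and 112.8 in WT and 63.3 and 82.7 in KO. These 2 and the Hemgn promoter were at or above the 87.8 percentile in every library. Tal1 had 2 regions of all 4 libraries, one inside the gene (14.4 and 26.6 in WT, 25.06 and 24.97 in KO) and one 3874 bp outside it (18.0 and 47.5 in WT, 36.6 and 40.2 in KO). Slc4a1, the anion exchanger of the red cell membrane, had 2 weak ones, with 4.38 to 13.7 over all libraries. Hbb-bt had 1, at 3230 bp from the gene, with 5.44 and 17.2 in WT and 6.20 and 6.89 in KO. Gata1 had 7 consensus regions, 2 of them in all 4 libraries. The one inside the gene at chrX:7964138-7964517 had 6.28 and 16.1 in WT and 27.2 and 23.3 in KO, with both KO values above both WT values.

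**Figure D3:**
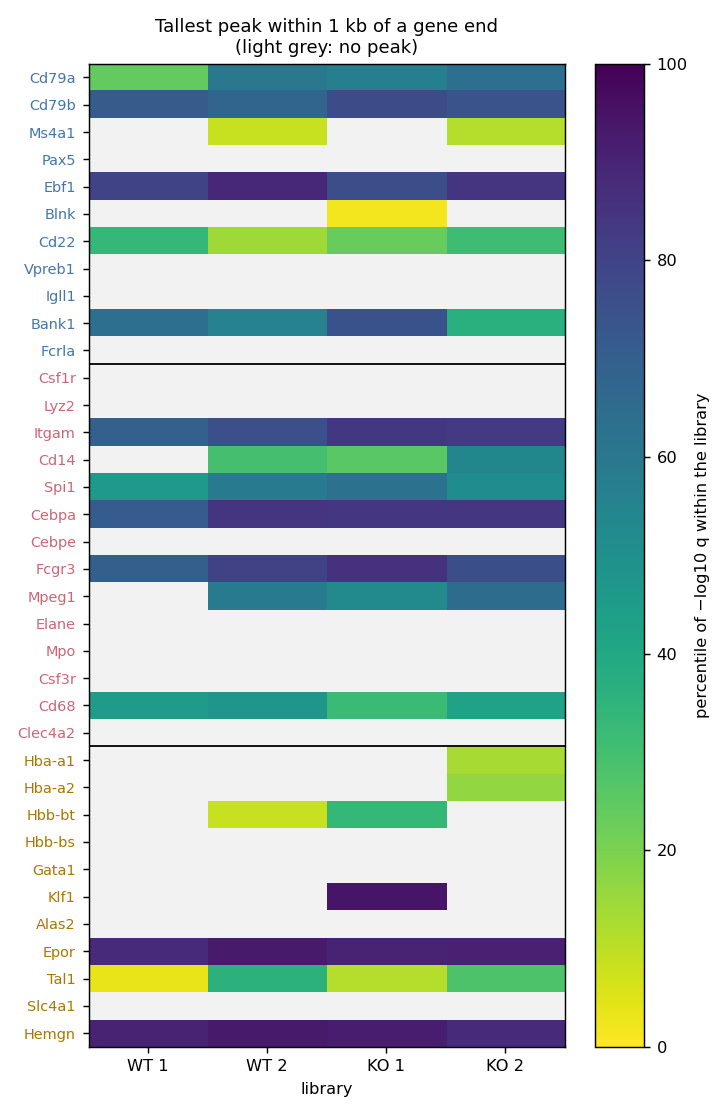
Tallest gene-end peak (at most 1 kb away) of each gene (rows, names coloured by lineage) in each library (columns), as the percentile of −log10 q within the library (colour, 0 to 100), light grey where no peak was called. Epor and Hemgn are dark in every library, and 15 of 36 genes are grey in all 4.

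As a set, the regions of the 36 genes were of ordinary persistence and lower height. Of their consensus regions 70.0% were called in all 4 libraries, against 64.2% of all. In the top 25% of every list stood 19 of the 105 regions called in all 4 libraries (18.1%), against 28.6% of all 78650 such regions. Their median percentile was 52.5 and 62.2 in WT and 63.4 and 62.5 in KO, below the 60.6, 69.9, 69.1 and 66.9 of all such regions in the same libraries. Of the 150 consensus regions 76 lay inside a gene and 6 across a gene end.

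The study compared accessibility between the genotypes, and the same comparison was made for these loci. The 36 genes took almost the same share of each library's called regions: 0.125% and 0.128% in WT 1 and WT 2 (123 and 167 regions) and 0.127% and 0.131% in KO 1 and KO 2. The genotypes overlapped in this share, but both KO values were above both WT values with peaks of height 5 or more (WT 0.1217% and 0.1241%, KO 0.1334% and 0.1324%), with lists of equal length (WT 0.1254% and 0.1234%, KO 0.1297% and 0.1357%) and where a peak had to cover 0.5 of the region (WT 0.1248% and 0.1275%, KO 0.1289% and 0.1328%). By lineage, the share for B cell genes was 0.0581% and 0.0615% in WT and 0.0562% and 0.0560% in KO, with both KO values the lower. For myeloid genes it was 0.0489% and 0.0499% in WT and 0.0522% and 0.0560% in KO, with both KO values the higher. For erythroid genes it was 0.0184% and 0.0169% in WT and 0.0190% and 0.0187% in KO, again with both KO values the higher. With peaks of height 5 or more the genotypes overlapped in both: myeloid WT 1 stood at 0.05361% and KO 1 at 0.05359%, and erythroid WT 2 at 0.0161% and KO 2 at 0.0149%. With lists of equal length the erythroid share overlapped too (WT 1 0.0183%, KO 1 0.0171%). The B cell difference turned when only peaks with a height of 5 or more were kept (KO minus WT of 0.00237 percentage points, against −0.00367). Genes with a gene-end peak numbered 13 and 17 in WT and 18 and 18 in KO. Those counted in KO and in neither WT library were Klf1 and Blnk in KO 1 alone, and Hba-a1 and Hba-a2 in KO 2 alone. The Blnk peak had a height of 1.43, and the near-identical Hba-a1 and Hba-a2 peaks 3.82 and 4.65. The Klf1 region, 972 bp inside the gene, was called in all 4 libraries, and its peak came within 1 kb of the end in KO 1 alone. Over all 21631 protein-coding genes they numbered 13398 and 14115 in WT and 14092 and 13912 in KO. Among the 36 genes WT 1, with the shortest list, set most of the gap. The difference of means was 3 genes with WT 1 and 1 without it.

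WT-only regions (called in both WT and neither KO library) numbered 4 of the 150 consensus regions (2.67%, exact 95% interval 0.731% to 6.69%), against 2.89% over the genome, and KO-only regions (the reverse) 6 (4%, 1.48% to 8.50%), against 4.34%. Both shares were near those of the genome, and the intervals cover counting error only. The WT-only regions were at 2 of the 36 genes, Ebf1 and Gata1 (12.1% of all protein-coding genes had one). Inside Ebf1, chr11:44704640-44704864 had heights of 9.28 and 23.5 in WT 1 and WT 2, and chr11:44928536-44928664 had 4.25 and 5.52. At Gata1, chrX:7966079-7966193 had 2.304 and 3.16, and chrX:7984952-7985066, 8289 bp upstream, had 2.15 and 6.26. Peaks on X made up 1.87% and 1.95% of the WT lists and 2.07% and 1.91% of the KO lists. Of all 4, the first Ebf1 region alone was above a height of 5 in both WT libraries.

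The KO-only regions were at 6 different genes (17% of all protein-coding genes had one), 2 of B cells and 4 of myeloid cells, and all were low. The region inside Mpo at chr11:87802723-87802880 had 6.20 and 5.77 in KO 1 and KO 2, and was the only consensus region of that gene. The one inside Spi1 at chr2:91083297-91083456 had 8.01 and 3.82, and lay between regions called in all 4 libraries. The one inside Pax5 at chr4:44568651-44568842 had 4.99 and 3.56. The one inside Itgam at chr7:128084809-128084984 had 3.55 and 4.13, and that 88 bp downstream of Cd22 at chr7:30865185-30865316 had 4.09 and 4.69. The one at Csf3r, 81229 bp upstream at chr4:125942115-125942212, had 3.17 and 1.79. At the 47.2 percentile or lower in every KO library, none of the 6 was among the taller peaks of its list. In the erythroid genes 0 of 24 consensus regions were KO-only (exact 95% upper limit 14.2%), and in the myeloid genes 0 of 61 were WT-only (upper limit 5.87%).

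**Figure D4:**
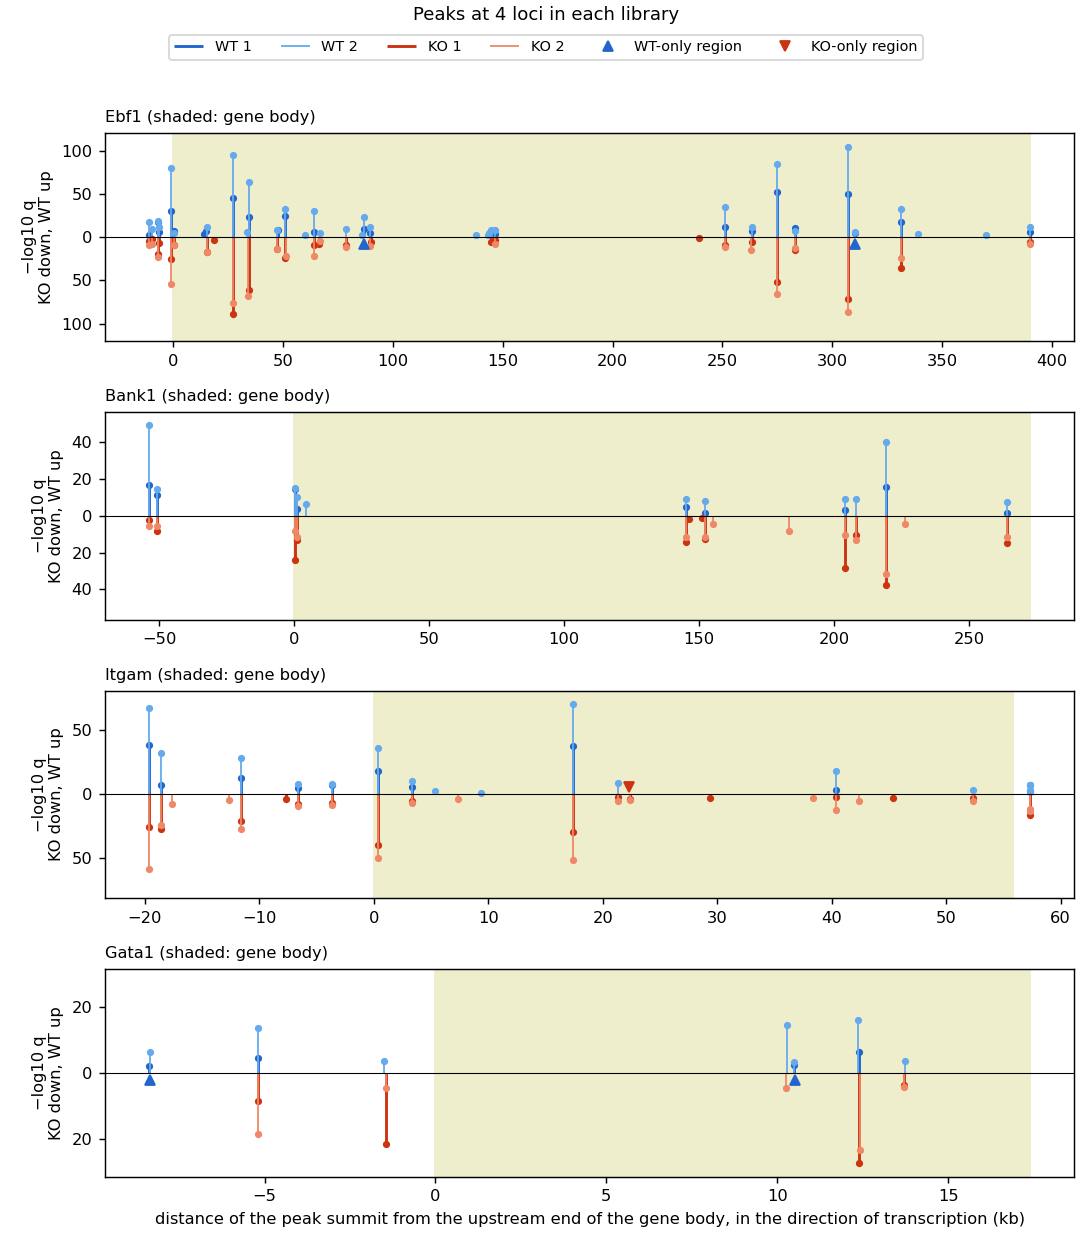
Peaks at Ebf1, Bank1, Itgam and Gata1, with the summit's distance from the upstream end of the gene body (horizontal axis, kb) and the −log10 q (vertical axis, WT upward in blue, KO downward in red, 1 shade per library). Triangles on the empty side mark WT-only and KO-only regions, which are short beside the tallest sites, and the region about 54 kb upstream of Bank1 is taller in WT.

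Among regions called in all 4 libraries, both KO percentiles were above both WT percentiles at 24 of 105 (23.8% of all such regions), and both WT percentiles were above both KO percentiles at 9 of 105 (13% of all). Fewer lists have to meet the rule when a library is left out, and the first count was then 69 without WT 2, 55 without KO 2, 36 without WT 1 and 34 without KO 1. The second count was 12, 19, 43 and 21 in the same order, above the first without WT 1 alone. With peaks of height 5 or more it was 4, and with lists of equal length 15. Shares over all regions were not computed under these alternatives, so whether all regions shift alike is not known. Bank1 held 7 of the 33 regions separated in the main comparison, in both directions. Its region 53754 bp upstream, at chr3:136379895-136380383, had the widest gap of the 33: heights of 17.0 and 49.1 in WT against 2.27 and 5.77 in KO, or the 67.1 and 81.1 percentile in WT and the 7.65 and 24.97 percentile in KO. A neighbour 50835 bp upstream was also higher in WT, at the 56.5 and 55.1 percentile against 48.9 and 24.97. Both lie in a wide stretch without other genes, as the next gene body, Ppp3ca, is 289331 bp from the farther one. Inside Bank1, 5 regions were higher in KO. The one with the widest gap, chr3:136061992-136062215, had 1.45 and 7.24 in WT and 14.6 and 11.8 in KO. WT 1 was at the 1.07 percentile there, and WT 2 at 35.9, so the WT libraries were themselves far apart.

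Other regions with separated genotypes were at genes of all 3 lineages. At Fcrla, a B cell protein related to Fc receptors, a region 4933 bp upstream stood at the 30.2 and 46.8 percentile in WT and at 11.5 and 14.0 in KO. At Blnk, 3 regions were higher in KO. The one with the largest mean difference, inside the gene at chr19:40936058-40936355, stood at the 12.7 and 31.5 percentile in WT and 48.9 and 44.8 in KO. Another inside the gene, at chr19:40963012-40963308, stood at 80.0 and 84.0 in WT and 85.0 and 85.7 in KO. Over the 105 regions the median difference, KO minus WT, was 4.33 percentile points (SD 12.2 over regions), and over all 78650 it was 1.45 (SD 10.9). By lineage it was 3.57 over 50 B cell, 5.61 over 43 myeloid and 3.90 over 12 erythroid regions. Regions of 1 gene share their locus and are not replicates. Without WT 1 the difference in the median percentile of the genes' regions changed sign, from 5.62 points to −1.05.

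**Figure D5:**
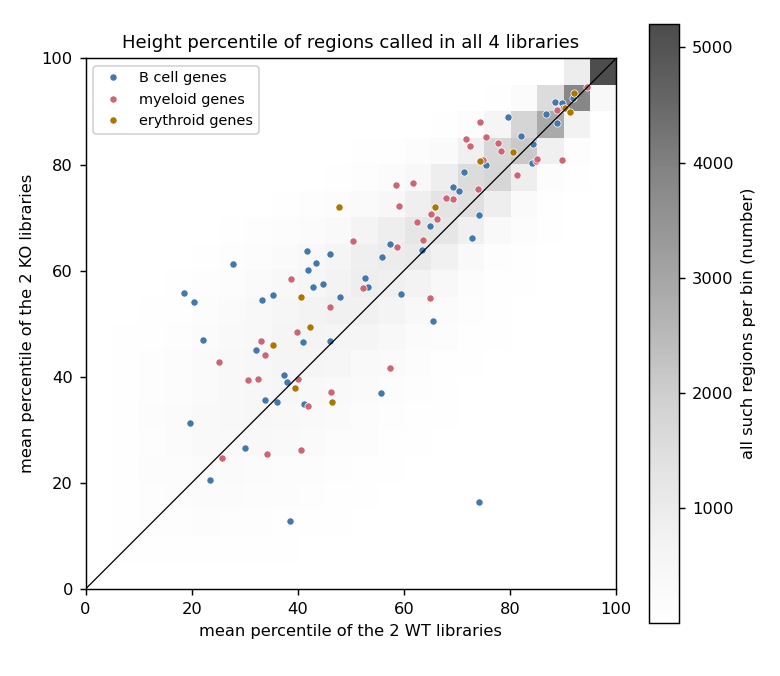
Mean percentile of −log10 q in the 2 WT libraries (horizontal axis) against that in the 2 KO libraries (vertical axis) for the 105 regions called in all 4 libraries, coloured by lineage, over the density of all 78650 such regions (grey, number per bin). The region upstream of Bank1 stands apart at the lower right, and most points lie along the diagonal.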

How the data were processed

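ATAC-seq was measured in 4 libraries, 2 of each genotype, from sorted cells with 9 to 11 PCR cycles, per the labels. Tools listed in the submitters' processing notes, with no roles, are MACS2 2.1.1, Bowtie2 2.3.4.1, deepTools 3.1.2, bedtools, Picard, cutadapt and Trim Galore, and the genome is GRCm38 (mm10). No source used here gives the peak settings, the Tn5 shift or the treatment of duplicates. The authors deposited 1 peak list per library, with a whole-number score, a fold enrichment ratio, a −log10 p and a −log10 q per summit, each computed within the library. The scores and folds were not used. Read depth was not analysed, and the length of a list stands in for it.

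Peaks on chromosomes 1 to 19 and X were merged at 1 bp of overlap and assigned to the nearest protein-coding gene body of RefSeq (GRCm38.p6) within 100 kb, with Python 3.11.15, pandas 2.3.3 and numpy 2.4.6. Percentiles are ranks of −log10 q within a list. On simulated peak lists, 773 of 773 planted regions were recovered with their gene and pattern. The genes, lists, motifs and tests were chosen with earlier results of these data known. All 36 genes are accounted for. By rule, per-library values are given for genes with a WT-only or KO-only region, with the tallest gene-end regions, or with 1 to 3 consensus regions of which at least 1 was in all 4 libraries. Alternatives were a stricter −log10 q, equal list lengths, a coverage minimum, other distances, a replicate block and leaving out each library. Counts over further genes of the 3 lineages are not reported here. Values of other genes, the CpG classes and the comparison of separated percentiles were chosen after the values were seen.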

Additional observations from a re-analysis of the deposited data

How the results depend on the processing

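For the share of regions and the number of gene-end peaks of the 36 genes, the difference of means kept its sign under every alternative run. These were peaks of height (−log10 q) 5 or more, equal list lengths, at least 0.5 of a region covered, and each library left out. Shares were also run with 20 kb in place of 100 kb, and gene ends with 2 kb in place of 1 kb. A kept sign does not mean separated genotypes. Gene-end counts were 21 and 26 in WT and 25 and 26 in KO with 2 kb. At that height they were 11 and 14 in WT and 14 and 15 in KO. Without WT 1 the shares differed by 0.000803 percentage points, with WT 2 between KO 1 and KO 2. The median percentile kept its sign except without WT 1, at −1.05 (5.62 as reported, range −1.05 to 12.2 with a library left out). WT-only regions fell from 4 to 1 at that height, and ran from 6 to 31 with a library left out, and KO-only regions from 8 to 29, where fewer lists had to meet the rule. Among the lineages, the B cell share turned to 0.00237 at that height and to 0.000217 percentage points with equal list lengths, and the B cell gene-end difference to −0.5 with 2 kb. The myeloid percentile turned to −7.45 without WT 1 (range −7.45 to 17.3 with a library left out). WT-only minus KO-only regions turned without WT 1 at Pax5 (range −5 to 2 with a library left out), Itgam (−6 to 2) and Csf3r (−2 to 1), each −1 as reported. The 5 open promoters numbered 5 in all 6 alternatives run for them. Ranked among regions of all 4 libraries, an alternative added after seeing the data, separated regions numbered 27 with KO higher and 16 with WT higher, and the median difference was 3.01. With a replicate block, the differences between libraries of 1 number averaged 0.00224 percentage points, 3 genes and 5.62 percentile points, as without it. The smallest exact p is then 0.5, and libraries of 1 number did not deviate together (correlation −0.00394 over 78650 regions), so the numbers were not used as pairs. A missing call in a short list need not mean closed chromatin.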

Other observations

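The clusters around the globin genes were not closed throughout, though the rule assigned much of them to neighbouring genes. Beside the β-globin cluster, 7787 bp beyond Hbb-y, an embryonic β-like globin gene, a region at chr7:103860994-103861221 was called in all 4 libraries, at heights (−log10 q) of 23.0 and 47.5 in WT and 55.5 and 47.3 in KO. A second one, 5986 bp beyond Hbb-y at chr7:103859193-103859338, was called in both KO libraries (9.604 and 18.4) and in neither WT library. Beside the α-globin cluster, a region at chr11:32267330-32267784 reached across an end of Nprl3. It had heights of 85.0 and 176.9 in WT and 112.1 and 151.9 in KO. Another, overlapping Nprl3 at chr11:32237144-32237270, was called in both WT libraries (4.49 and 9.28) and in neither KO library. Introns of Nprl3 hold the enhancers of the α-globin genes, and whether these regions cover them was not tested. The θ-globin genes of the same cluster were open in all 4 libraries: a region reaching into Hbq1b, at chr11:32286826-32287050, had 53.6 and 91.1 in WT and 63.6 and 73.7 in KO, and one reaching into Hbq1a, at chr11:32299963-32300134, had 25.8 and 47.7 in WT and 34.6 and 62.1 in KO. These regions were chosen after their values were seen.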
